A study of Mus musculus with 6 samples.

Results

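Cells make cholesterol from acetyl-CoA. In the mevalonate arm of the pathway, acetyl-CoA is built up to mevalonate, phosphorylated and joined into farnesyl pyrophosphate, which also feeds non-sterol isoprenoids. In the later arm, farnesyl pyrophosphate is condensed to squalene, and squalene is closed to a ring and trimmed to cholesterol. The SREBP transcription factors switch on the genes of these steps. SREBP2, the product of Srebf2, acts mainly on sterol synthesis, and SREBP1, the product of Srebf1, mainly on fatty acid synthesis. SCAP escorts the SREBP precursors from the endoplasmic reticulum to the Golgi for cleavage, and the INSIG proteins hold SCAP back when sterols are plentiful. Enterocytes of the jejunum also absorb dietary and biliary cholesterol through NPC1L1 at the brush border.

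The 28 genes described here were chosen by symbol and comprise 20 enzymes of sterol synthesis, 5 genes of the SREBP system and 3 genes of cholesterol uptake, transfer and esterification. All 28 were present among the 19616 genes of the deposited table, and all 28 passed the filter on low counts that left 15618 genes for testing. Poly(A) RNA was sequenced from jejunal intestinal epithelial cells (IEC), enriched with EDTA, of 3 control mice, labelled wildtype, and 3 mice labelled villin-Cre Hdac1-/-; Hdac2-/-, all 3 months old, to ask what loss of both deacetylases does to gene expression in these cells. HDAC1 and HDAC2 remove acetyl groups from histones within corepressor complexes. The floxed alleles were deleted by Cre under the villin promoter, which is active in IEC, and the study's mice had a mixed C57BL/6J, 129SV and CD1 background. The control mice are C1, C3 and C3-3 and the Hdac1/2-deleted mice H1, H5 and H9, with 1 library per mouse.

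Between 36111035 reads (H5) and 65902344 reads (C1) were counted on genes in a library. Expression is given as CPM (counts divided by the library total in units of 1e6 and by the TMM factor), with mean ± SD over n = 3 mice per group. At these depths 3 counts correspond to 0.0455 to 0.0831 CPM, a floor that covers counting error only. Hdac1 was 40.8 ± 7.32 CPM in control and 3.77 ± 1.15 CPM in Hdac1/2-deleted IEC, with log2 fold change -3.43 (standard error 0.26, adjusted p = 2.9e-05). Here and below, adjusted p-values come from the quasi-likelihood test of edgeR, corrected over all tested genes by the Benjamini-Hochberg method. Hdac2 was 27.7 ± 4.71 and 24.5 ± 2.70 CPM (log2 fold change -0.18, adjusted p = 0.44), and scaling by library totals alone gave 0.0069. Whether the counted Hdac2 reads lie within the deleted part of the gene cannot be read from counts per gene, so its level does not check the labels. Summed over 12 enterocyte markers, the level was 90246 to 104420 CPM in control and 34136 to 45430 CPM in Hdac1/2-deleted mice. The highest markers weigh most in this sum. Mean levels in control and Hdac1/2-deleted mice were 38380 and 6281 CPM for Apoa4, and 22698 and 13212 CPM for Apoa1. The median log2 fold change of the 12 markers was -0.67, short of 2-fold. Of the 12 markers 1 (8.33%) was called increased (Alpi) and 5 (41.7%) were called decreased, against 12.4% and 12.7% of all tested genes. Summed over 11 stromal markers, it was 64.9 CPM in C1, 45.8 CPM in C3, 6.30 CPM in C3-3 and 4.53 to 10.2 CPM in the Hdac1/2-deleted mice. The smooth muscle gene Myh11 had 0 counts in H5 and H9. Because C1 and C3 stand apart in this way, some values below are also given with C3-3 as the only control. In bulk RNA, fewer cells of a type and less RNA per cell cannot be told apart.

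Calls of an increase or a decrease required a difference of at least 2-fold with an adjusted p no higher than 0.05. Of the 28 genes, 7 (25%) were called increased, against 12.4% of all tested genes, and 3 (10.7%) were called decreased, against 12.7%. All 7 increased genes were enzymes of sterol synthesis, Mvk, Sqle, Acat2, Nsdhl, Fdps, Mvd and Dhcr7. The 3 decreased genes were Srebf1, Npc1l1 and Stard4, none of which is an enzyme of the pathway. Whatever the fold, 9 genes (32.1%) passed the adjusted p limit and were higher, against 20.5% of tested genes, and 4 (14.3%) were lower, against 20.3%. Without any overlap between the mice of both groups, 9 genes were higher (32.1%, against 26.7% of tested genes) and 6 were lower (21.4%, against 26.6%). For a single gene, the smallest p of an exact two-sided permutation test with 3 mice per group is 0.1.

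The genes are described by role, and no list as a whole was tested. Of the enzymes, 7 (35%) were called increased and 0 decreased by edgeR, and DESeq2 gave 7 and 0 as well. Past the adjusted p limit, 8 enzymes (40%) were higher, against 20.5% of tested genes, and 0 were lower. At an unadjusted p under 0.05, for which no share of all genes is given, 10 enzymes were higher and 1, Lbr, was lower. Their median log2 fold change was 0.47, beside a median of -0.0081 and quartiles of -0.62 and 0.56 over all tested genes. All 8 genes of the mevalonate arm had a positive value, against 49.6% of all tested genes. The median was 0.75 over these 8 genes and 0.39 over the 12 genes from squalene to cholesterol. Over the 5 genes of the SREBP system it was -0.28, and over the 3 handling genes -1.25. Scaling by library totals alone moved the median of all genes to 0.18 and the increased share of all calls from 49.4% to 61.6%, and 10 of the 28 genes were then called increased. With C3-3 as the only control, the medians were 0.64 for the mevalonate arm, 0.025 for the later arm and 0.065 for all tested genes. The log2 fold changes of Mvk, Sqle, Nsdhl and Acat2 were then 2.02, 1.42, 1.41 and 1.27. Those of Fdps, Dhcr7 and Mvd were 0.90, 0.77 and 0.55, below 2-fold, and those of Srebf1, Stard4 and Npc1l1 were -2.25, -1.55 and -1.40.

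**Figure D1:**
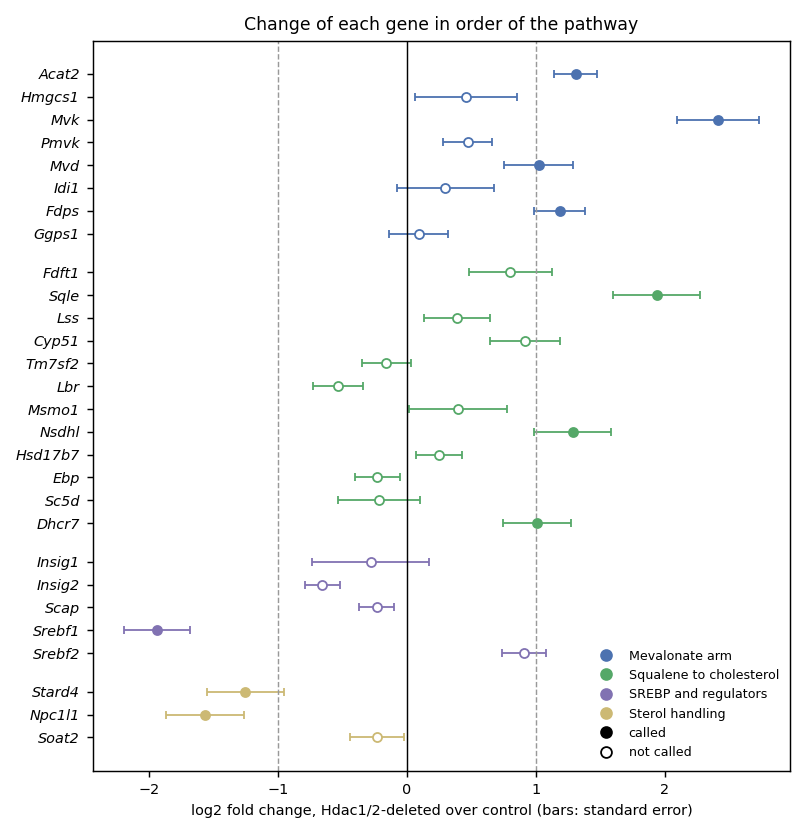
Log2 fold change of each of the 28 genes, Hdac1/2-deleted over control (x axis), in the order of the pathway (y axis), with bars for the standard error, filled circles for genes called at 2-fold and an adjusted p of at most 0.05, and dashed lines at 2-fold. The 7 filled circles to the right are all enzymes, and the 3 to the left are Srebf1, Npc1l1 and Stard4.

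In the mevalonate arm, 4 of 8 genes (50%) were called increased, against 12.4% of all tested genes. Mvk, which encodes the kinase that phosphorylates mevalonate, showed the largest change of the 28 genes. It is listed as ENSMUSG00000041939 and lies on chromosome 5 from 114444269 to 114460591 of GRCm38, the build used for all gene positions here. Its level was 7.49 CPM in C1, 16.3 in C3 and 18.9 in C3-3, and 76.1 in H1, 69.5 in H5 and 81.7 in H9. The lowest Hdac1/2-deleted mouse was thus far above the highest control, and the mean rose 5.33-fold in the fit, from 14.2 ± 5.97 to 75.8 ± 6.11 CPM (log2 fold change 2.41, standard error 0.32, adjusted p = 7.0e-04). Leaving out any 1 mouse gave it log2 fold changes between 2.11 and 2.68, and with C3-3 as the only control it was 2.02. Levels of Mvk per kb of exon moved from the 22nd to the 5th place among the 28 genes.

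Acat2, at the entry of the pathway, encodes the cytosolic thiolase that joins 2 acetyl-CoA. It is listed as ENSMUSG00000023832, on chromosome 17 from 12942890 to 12960747. Its control levels lay close together, at 14.9, 17.6 and 17.2 CPM in C1, C3 and C3-3, and those of H1, H5 and H9 were 47.8, 41.4 and 34.0 CPM. The groups did not overlap, and the rise from 16.6 ± 1.43 to 41.1 ± 6.92 CPM amounted to 1.31 on the log2 scale (standard error 0.17, adjusted p = 4.0e-04). A close relative, Acat3, lies beside Acat2 and could share reads with it, but had only 9 to 55 counts per library where Acat2 had 915 to 3545. Fdps, which encodes the farnesyl pyrophosphate synthase at the branch point to isoprenoids, lies on chromosome 3 from 89093588 to 89101959. Its levels were 15.8, 20.01 and 24.7 CPM in C1, C3 and C3-3 and 54.2, 42.3 and 41.1 CPM in H1, H5 and H9, without overlap (log2 fold change 1.18, standard error 0.20, adjusted p = 0.0015). The annotation gives the same-strand gene Gm43738 26.7% of the exonic bases of Fdps, so the counts of Fdps are uncertain to that extent. With C3-3 as the only control, the log2 fold change of Fdps was 0.90 and the 2-fold limit was missed.

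Mvd encodes the decarboxylase that yields isopentenyl pyrophosphate, and lies on chromosome 8 from 122433601 to 122443422. It stood at 8.86 CPM in C1, 14.6 in C3 and 20.4 in C3-3, and at 31.0, 28.5 and 29.5 CPM in H1, H5 and H9. The Hdac1/2-deleted mice were nearly alike and all above the controls, which differed among themselves by 2.30-fold (log2 fold change 1.02, standard error 0.27, adjusted p = 0.015). This call rested on single mice: the log2 fold change was 0.77 without C1 and 0.99 without H1 (adjusted p = 0.051), and with C3-3 as the only control it was 0.55 (adjusted p = 0.13).

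The other 4 genes of this arm were not called. Hmgcs1, encoding the cytosolic HMG-CoA synthase, had log2 fold change 0.46 (standard error 0.39, adjusted p = 0.39), and its levels of 66.4, 58.0 and 118.7 CPM in C1, C3 and C3-3 overlapped with 140.0, 59.1 and 135.1 CPM in H1, H5 and H9. In the annotation, 12.1% of the exonic bases of Hmgcs1 are shared with an antisense gene. For Pmvk, the kinase after Mvk, log2 fold change and standard error were 0.47 and 0.19 (adjusted p = 0.078). Idi1, the isopentenyl pyrophosphate isomerase, was the lowest of the 28 genes per kb of exon in both groups. Its control mice were close together at 4.18 to 4.63 CPM, whereas the Hdac1/2-deleted mice ranged from 3.13 CPM in H5 to 8.95 CPM in H1, on either side of the controls (log2 fold change 0.30, adjusted p = 0.56). Ggps1, which makes geranylgeranyl pyrophosphate for protein prenylation, stood at 8.76 ± 0.76 and 9.34 ± 2.52 CPM (log2 fold change 0.09, adjusted p = 0.78). The neighbouring steps catalysed by Hmgcs1 and Mvk thus had very different values in the same mice. The difference between the genes was not tested.

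**Figure D2:**
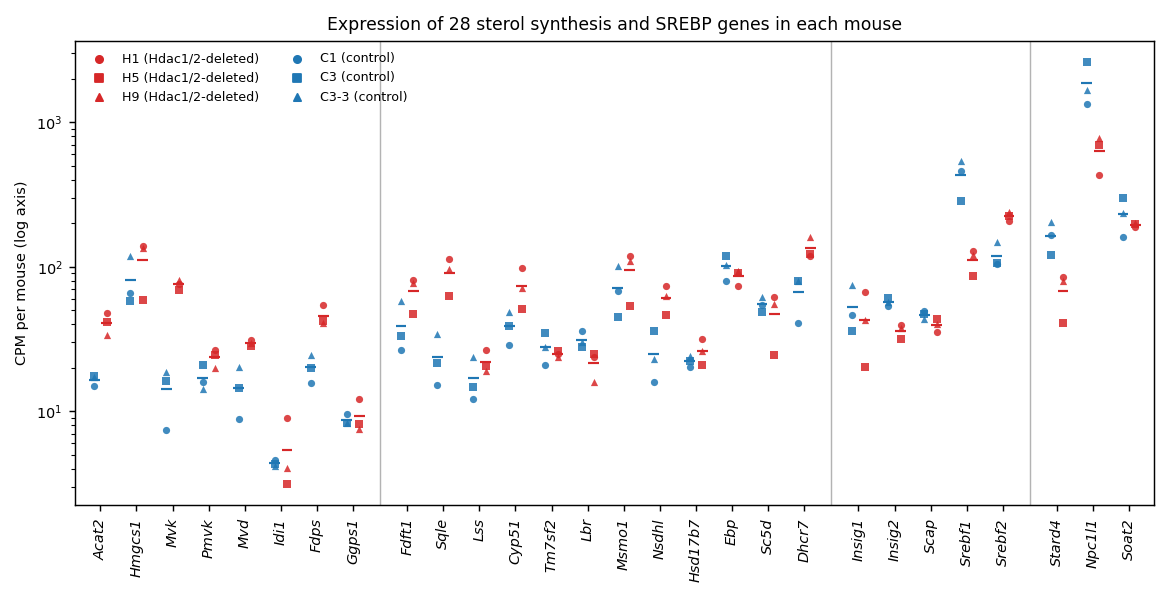
CPM of each of the 28 genes on a log axis (y axis), by gene in the order of the pathway (x axis), with 1 point per mouse, control in blue on the left and Hdac1/2-deleted in red on the right of each pair, and a dash at the group mean. The red points of Mvk, Sqle and Acat2 lie wholly above the blue ones, those of Srebf1 and Npc1l1 wholly below, and those of Hmgcs1, Idi1 and Insig1 spread around the controls.

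Start-site sequences are shown for 3 genes of this arm because they differ in their change and in the motifs they hold. A window from 250 bases before to 50 bases after the start site was taken from RefSeq on GRCm38.p6 and was found for 23 of the 28 genes. Sqle, Fdps, Fdft1, Stard4 and Soat2 had no entry. Each window was searched on both strands for TCACNCCAC, a form of the sterol regulatory element bound by SREBP, for CCAAT, the box bound by NF-Y, and for GGGCGG, an Sp1 box, each on its own, so that matches may share bases. TCACNCCAC was found in 1 of the 23 genes, Hmgcs1, and in 1.44% of 27025 genes with a window. CCAAT was found in 21 of the 23 genes, against 41.1% of all genes, and GGGCGG in 20 of the 23, against 38.2%. These are matches of letters, not measured binding. The parts upstream of any annotated exon are printed 5′ to 3′ on the strand of the gene, with capitals for CCAAT or its complement ATTGG and for TCACNCCAC. The stretch of Mvk lies at chr5:114444061-114444268 on the plus strand and holds 5 CCAAT matches, that of Hmgcs1 at chr13:119690101-119690350 on the plus strand and holds 3 and the single TCACCCCAC, and that of Acat2 at chr17:12960748-12960975 on the minus strand and holds 0.
Mvk: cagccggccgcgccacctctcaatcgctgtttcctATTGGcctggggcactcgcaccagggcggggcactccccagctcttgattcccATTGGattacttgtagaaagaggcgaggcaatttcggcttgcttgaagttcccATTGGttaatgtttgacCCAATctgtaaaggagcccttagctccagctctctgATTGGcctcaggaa
Hmgcs1: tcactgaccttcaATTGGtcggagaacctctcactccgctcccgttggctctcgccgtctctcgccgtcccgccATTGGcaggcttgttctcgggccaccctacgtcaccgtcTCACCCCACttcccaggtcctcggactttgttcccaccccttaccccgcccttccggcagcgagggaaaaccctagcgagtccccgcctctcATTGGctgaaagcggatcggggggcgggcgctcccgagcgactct
Acat2: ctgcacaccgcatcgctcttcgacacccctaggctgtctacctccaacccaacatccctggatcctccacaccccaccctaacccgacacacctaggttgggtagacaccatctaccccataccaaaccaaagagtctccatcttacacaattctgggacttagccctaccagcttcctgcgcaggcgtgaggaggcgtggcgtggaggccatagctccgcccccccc
Mvk and Acat2, with 5 and 0 CCAAT matches, were both called increased, and Hmgcs1, with the TCACNCCAC match, was not.

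From squalene to cholesterol, 3 of 12 genes (25%) were called increased, against 12.4% of all tested genes. A further 1, Cyp51, passed the adjusted p limit without reaching 2-fold. Sqle encodes squalene epoxidase, the first oxygen-requiring step of the pathway, and lies on chromosome 15 from 59315077 to 59331192 (ENSMUSG00000022351). Its level was 15.2 CPM in C1, 21.7 in C3 and 34.4 in C3-3, and 113.9, 63.0 and 95.9 CPM in H1, H5 and H9. Every Hdac1/2-deleted mouse was above every control, and the mean rose from 23.7 ± 9.77 to 91.0 ± 25.8 CPM (log2 fold change 1.94, standard error 0.34, adjusted p = 0.0029). With C3-3, the highest control, as the only one, the log2 fold change was 1.42 and the call held.

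Nsdhl, encoding a dehydrogenase of the C4 demethylation complex, is X-linked and lies from 72918557 to 72958514. Its levels were 16.03, 35.8 and 23.1 CPM in C1, C3 and C3-3 and 73.2, 46.4 and 63.1 CPM in H1, H5 and H9, without overlap (log2 fold change 1.29, standard error 0.30, adjusted p = 0.0095). Dhcr7, encoding the last reductase before cholesterol, lies on chromosome 7 from 143823145 to 143848410. It stood at 40.9, 79.7 and 79.4 CPM in C1, C3 and C3-3 and at 117.9, 122.9 and 161.8 CPM in H1, H5 and H9 (log2 fold change 1.01, standard error 0.26, adjusted p = 0.015). The groups did not overlap, but the rise of Dhcr7 was just past 2-fold and C1 was far below the other controls. Without C1 the log2 fold change of Dhcr7 was 0.76, without H9 it was 0.86 (adjusted p = 0.050, just above the limit), and with C3-3 as the only control it was 0.77.

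Cyp51, encoding the lanosterol 14α-demethylase, was 29.0, 39.0 and 49.0 CPM in C1, C3 and C3-3 and 98.3, 50.7 and 71.8 CPM in H1, H5 and H9 (log2 fold change 0.92, standard error 0.27, adjusted p = 0.025). The highest control and the lowest Hdac1/2-deleted mouse of Cyp51 nearly touched. Its adjusted p was above the limit when C1, C3, H1 or H9 was left out (0.058 to 0.083), and with C3-3 as the only control (0.24), and it was called increased without C3-3 or H5. Fdft1, encoding squalene synthase, overlapped between the groups, with 26.7 to 58.1 CPM in control and 47.2 to 81.2 CPM in Hdac1/2-deleted mice (log2 fold change 0.80, standard error 0.32, adjusted p = 0.083). It was called increased without C3-3 (log2 fold change 1.21, adjusted p = 0.0080) and without H5 (1.02, adjusted p = 0.049). In the annotation, 18.3% of the exonic bases of Fdft1 are shared with Ctsb on the opposite strand, whose log2 fold change was 0.57, and the strand setting used for counting is not given in the sources used here.

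Besides Fdft1, 7 genes of the later arm did not pass the test. Positive log2 fold changes among them were those of Msmo1 (0.40), Lss (0.39) and Hsd17b7 (0.25). They encode the C4 methyl oxidase that opens demethylation, the cyclase that makes lanosterol, and the keto-reductase of C4 demethylation. Negative values were those of Tm7sf2 (-0.16), Sc5d (-0.22), Ebp (-0.23) and Lbr (-0.53), which encode a sterol 14-reductase, the C5-desaturase, the Δ8-Δ7 isomerase and the lamin B receptor, itself a 14-reductase. Of these, only Lbr did not overlap between the groups, at 35.8, 27.8 and 30.2 CPM in C1, C3 and C3-3 and 23.7, 25.03 and 16.01 CPM in H1, H5 and H9 (adjusted p = 0.057). Tm7sf2 shares 12.1% of its exonic bases with Vps51 on the same strand, and its value turned to 0.044 under library totals. The enzymes called increased therefore lay on both arms, and the genes between them in the pathway were not all called.

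Among the SREBP genes, the transcripts of both factors moved in opposite directions. Srebf1 lies on chromosome 11 from 60199089 to 60222581 (ENSMUSG00000020538). Its level was 463 CPM in C1, 287 in C3 and 536 in C3-3, and 128, 86.8 and 120 CPM in H1, H5 and H9. No control mouse came near the Hdac1/2-deleted range, and Srebf1 fell from 429 ± 128 to 112 ± 21.9 CPM (log2 fold change -1.94, standard error 0.25, adjusted p = 5.0e-04). Srebf2 lies on chromosome 15 from 82147181 to 82205379 (ENSMUSG00000022463). Its level was 104 CPM in C1, 106 in C3 and 148 in C3-3, and 208, 225 and 239 CPM in H1, H5 and H9. The rise of Srebf2 was 1.88-fold, so it passed the adjusted p limit without being called (log2 fold change 0.91, standard error 0.17, adjusted p = 0.0028). With C3-3 as the only control, the log2 fold change was 0.61 for Srebf2 (adjusted p = 0.075) and -2.25 for Srebf1 (adjusted p = 7.6e-05).

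Set side by side per kb of exon, the order of the pair differed between the groups. The ratio of the Srebf1 level to the Srebf2 level, both in CPM per kb, was 5.66 in C1, 3.45 in C3 and 4.62 in C3-3, and 0.79 in H1, 0.49 in H5 and 0.64 in H9. Srebf1 was thus the more abundant of the pair in each control mouse and the less abundant in each Hdac1/2-deleted mouse. Among the 28 genes, Srebf1 went from the 3rd to the 9th place per kb and Srebf2 from the 8th to the 4th. Counts per gene do not separate the transcripts of SREBP1a and SREBP1c, which start at different promoters of Srebf1.

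The genes that hold or escort SREBP differed in size and in evenness. Insig2 was 53.2, 60.8 and 57.0 CPM in C1, C3 and C3-3 and 39.4, 31.5 and 37.5 CPM in H1, H5 and H9. The groups were tight and did not overlap, and Insig2 fell by 0.66 on the log2 scale (standard error 0.14, adjusted p = 0.0053), short of 2-fold. Its adjusted p was 0.057 with C3-3 as the only control. Insig1, itself a known SREBP target, was by contrast 46.8, 36 and 74.9 CPM in C1, C3 and C3-3 and 66.5, 20.3 and 42.7 CPM in H1, H5 and H9 (log2 fold change -0.28, standard error 0.45, adjusted p = 0.66). Its Hdac1/2-deleted mice spread over 3.28-fold, the widest of the 28 genes in that group, and the groups overlapped in part, with H5 below every control and C3-3 above every Hdac1/2-deleted mouse. Scap was 43.7 to 49.3 CPM in control and 35.4 to 43.6 CPM in Hdac1/2-deleted mice, which just failed to overlap (log2 fold change -0.23, adjusted p = 0.20), and 13.2% of its exonic bases are shared with a gene on the other strand.

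Of the 3 handling genes, 2 (66.7%) were called decreased, against 12.7% of all tested genes. Npc1l1, the intestinal cholesterol importer, had the highest level per kb of the 28 genes in both groups and lies on chromosome 11 from 6211013 to 6230143 (ENSMUSG00000020447). Its level was 1339 CPM in C1, 2617 in C3 and 1680 in C3-3, and 432, 692 and 773 CPM in H1, H5 and H9. All Hdac1/2-deleted mice were below all controls, and Npc1l1 fell by 1.57 on the log2 scale (standard error 0.30, adjusted p = 0.0035), with -1.40 when C3-3 was the only control. Stard4, a carrier of cholesterol between membranes and an SREBP2 target, was 167, 121 and 203 CPM in C1, C3 and C3-3 and 85.3, 41.0 and 79.3 CPM in H1, H5 and H9 (log2 fold change -1.25, standard error 0.30, adjusted p = 0.011). The groups of Stard4 did not overlap, and without H5, the lowest mouse, its log2 fold change was -0.98 and the 2-fold limit was missed. Soat2, the enterocyte enzyme that esterifies cholesterol for chylomicrons, overlapped at 160, 297 and 234 CPM in C1, C3 and C3-3 and 188, 199 and 200 CPM in H1, H5 and H9 (log2 fold change -0.23, adjusted p = 0.41).

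Npc1l1 and Soat2 are genes of absorptive enterocytes, and the summed enterocyte markers given above were also lower in the Hdac1/2-deleted mice. Of the 12 enterocyte markers, 10 (83.3%) were lower without overlap between groups, against 26.6% of all tested genes. The part of the enterocyte markers in the values of Npc1l1, Soat2 and Srebf1 was not tested.

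Beyond the difference between groups, the mice of a group were ordered alike in many of the genes. C1 was the lowest control for 17 of the 28 genes (60.7%), against 35.4% of all tested genes, and C3-3 was the highest for 15 (53.6%), against 27.8%. Among Hdac1/2-deleted mice, H1 was the highest for 19 genes (67.9%), against 35.2%, and H5 the lowest for 15 (53.6%), against 37.4%. In 12 genes, Cyp51, Fdft1, Hmgcs1, Hsd17b7, Insig1, Msmo1, Mvd, Mvk, Sc5d, Sqle, Srebf1 and Stard4, the highest control was C3-3 and the lowest Hdac1/2-deleted mouse was H5. These genes share libraries, so they are not separate observations of the mice. No share of all tested genes is given for the joint count of 12. H5 was also the shallowest library.

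The spread within the Hdac1/2-deleted group differed widely between genes. The highest mouse exceeded the lowest by 3.28-fold for Insig1, 2.86-fold for Idi1, 2.55-fold for Sc5d and 2.37-fold for Hmgcs1, but by only 1.06-fold for Soat2 and 1.09-fold for Tm7sf2 and for Mvd. Of these, Mvd was called, and Stard4 was called with a spread of 2.08-fold. Summed over the 20 enzymes, the level was 563 CPM in C1, 682 in C3 and 844 in C3-3, and 1245 in H1, 869 in H5 and 1167 in H9. The sums of C3-3 and H5 were close to each other, and the means were 697 ± 141 and 1093 ± 198 CPM.

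**Figure D3:**
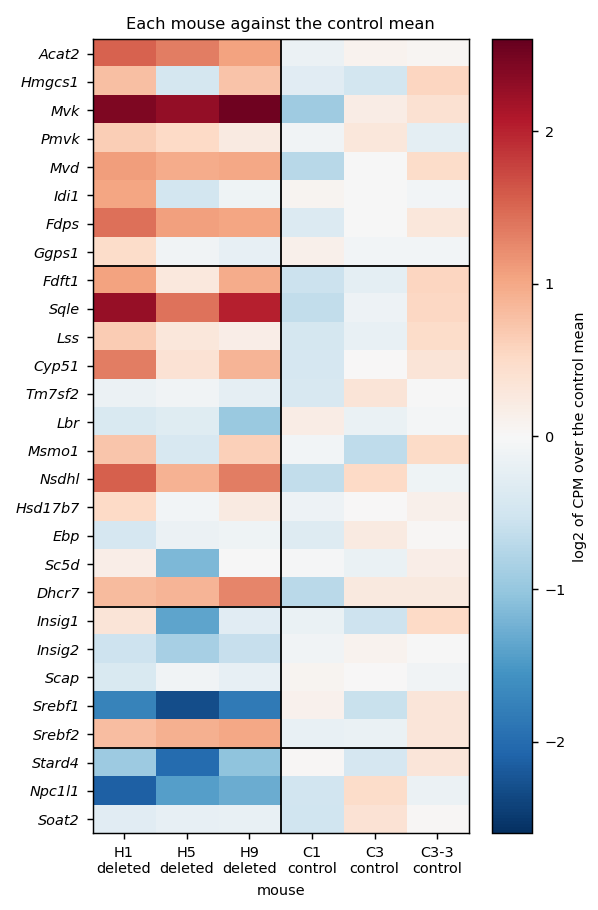
Level of each of the 28 genes (y axis) in each mouse (x axis) as the log2 of its CPM over the control mean of that gene, with red above and blue below the control mean. The rows of Mvk and Sqle are red in H1, H5 and H9, those of Srebf1, Stard4 and Npc1l1 blue, and Insig1, Hmgcs1, Msmo1 and Sc5d are red or pale in H1 and blue in H5.

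Fatty acid synthesis, the branch chiefly served by SREBP1, was read from a list of 20 genes, of which 18 were tested. In it edgeR called 3 genes (16.7%) increased, a share near the 12.4% of all tested genes, and 0 decreased, and DESeq2 called 4 and 0. Past the adjusted p limit, 6 (33.3%) were higher, against 20.5% of all tested genes, and 0 were lower. At an unadjusted p under 0.05, for which no share of all genes is given, 12 were higher and 1, Acacb, was lower. Log2 fold changes were positive for 16 genes (88.9%, against 49.6% of all tested genes) and negative for Acacb (-1.80, adjusted p = 0.084) and Elovl5 (-0.0014). The median was 0.45. With C3-3 as the only control, the median was 0.47. The called genes were Lpin1, a phosphatidate phosphatase (log2 fold change 2.10, adjusted p = 5.1e-04), Elovl6, which elongates palmitate (1.66, adjusted p = 1.1e-04), and Gpam, the first acyltransferase of glycerolipid synthesis (1.25, adjusted p = 0.0016). Elovl6 was 56.2 to 72.3 CPM in control and 170 to 233 CPM in Hdac1/2-deleted mice. Fasn, the fatty acid synthase itself, rose from 65.7 ± 9.88 to 106 ± 13.7 CPM (log2 fold change 0.69, adjusted p = 0.0080).

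The machinery that cleaves and degrades SREBP and its partners was read from 17 genes, of which edgeR and DESeq2 each called 0 in either direction. By edgeR 4 (23.5%) passed the adjusted p limit higher and 4 (23.5%) lower, near the 20.5% and 20.3% of all tested genes. An unadjusted p under 0.05, for which no share of all genes is given, was reached by 5 higher and 5 lower. Mbtps2, the site-2 protease, had log2 fold change 0.83 (adjusted p = 0.031) and Tmem97, a membrane protein that binds NPC1, 0.69 (adjusted p = 0.0066). Also higher past the limit were Ube2g2 (0.59, adjusted p = 0.019) and Syvn1 (0.54, adjusted p = 0.030). Erlin2 was lower, at -0.67 (adjusted p = 0.0040). Of the 4 listed genes of the coat that carries cargo out of the endoplasmic reticulum, Sar1b was at -0.65 (adjusted p = 0.010), Sec24d at -0.59 (adjusted p = 0.017) and Sec23a at -0.46 (adjusted p = 0.037), and Sar1a at 0.23 (adjusted p = 0.15). The genes named in this paragraph, with Fasn, Acacb, Elovl5, Alpi, Apoa4 and Apoa1, fall outside the rule for named genes and were chosen after their values were seen.

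Genes of sterol transport and of LXR, the oxysterol receptor, had a negative median, unlike the synthesis enzymes. Of 23 tested genes, 4 (17.4%) were called increased and 6 (26.1%) decreased, against 12.4% and 12.7% of all tested genes. Past the adjusted p limit 11 (47.8%) were lower, against 20.3%, and the median was -0.45. The largest decreases were those of Osbpl1a, an oxysterol-binding protein (-3.52, adjusted p = 1.3e-05), Cyp27a1, the sterol 27-hydroxylase (-2.87, adjusted p = 0.0035), and Mylip, a ubiquitin ligase for lipoprotein receptors (-2.69, adjusted p = 0.0011). The largest increases were those of Stard5, a cytosolic sterol carrier (2.57, adjusted p = 2.0e-04), Scarb1, the receptor for HDL (2.57, adjusted p = 0.010), and Soat1, the relative of Soat2 (1.18, adjusted p = 0.0026). Soat1 rose from 11.1 ± 2.19 to 25.2 ± 5.49 CPM while Soat2 did not pass the test. Abcg5 and Abcg8, whose products pair to pump sterols back to the lumen, had unequal values, with Abcg8 called decreased at -1.47 (adjusted p = 9.4e-04) and Abcg5 at -0.50 (adjusted p = 0.039), short of 2-fold. The value of Abcg5 missed the limit without C3, C3-3, H5 or H9 (adjusted p 0.083 to 0.13), with C3-3 as the only control (0.14) and under library totals (-0.30, adjusted p = 0.17).

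Farnesyl pyrophosphate also feeds dolichol, ubiquinone and protein prenylation, read from 14 genes. Of these, edgeR called 2 increased (14.3%, near the 12.4% of all tested genes) and 0 decreased, and DESeq2 gave the same counts. The median was 0.24. At an unadjusted p under 0.05, for which no share of all genes is given, 5 genes were higher and 1 was lower. The increased genes were Fntb, the farnesyltransferase beta subunit (1.06, adjusted p = 9.3e-04), and Rce1, which trims prenylated proteins (1.03, adjusted p = 9.3e-04). Both lay just past 2-fold, and the call of Fntb was lost without C3 and that of Rce1 without C1.

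Acetyl-CoA and ketone bodies are also handled in the mitochondrion. Acat1, the mitochondrial thiolase and relative of Acat2, was called decreased, at 231 to 249 CPM in control and 52.2 to 132 CPM in Hdac1/2-deleted mice (log2 fold change -1.39, standard error 0.29, adjusted p = 0.0063), where Acat2 was called increased. The adjusted p of Acat1 was 0.10 with C3-3 as the only control. Oxct1, which activates ketone bodies for oxidation, rose from 87.4 ± 13.7 to 444 ± 59.5 CPM (log2 fold change 2.34, adjusted p = 2.8e-05), and Bdh1, which interconverts the ketone bodies, from 202 ± 19.6 to 451 ± 42.9 CPM (1.16, adjusted p = 4.3e-04).

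**Figure D4:**
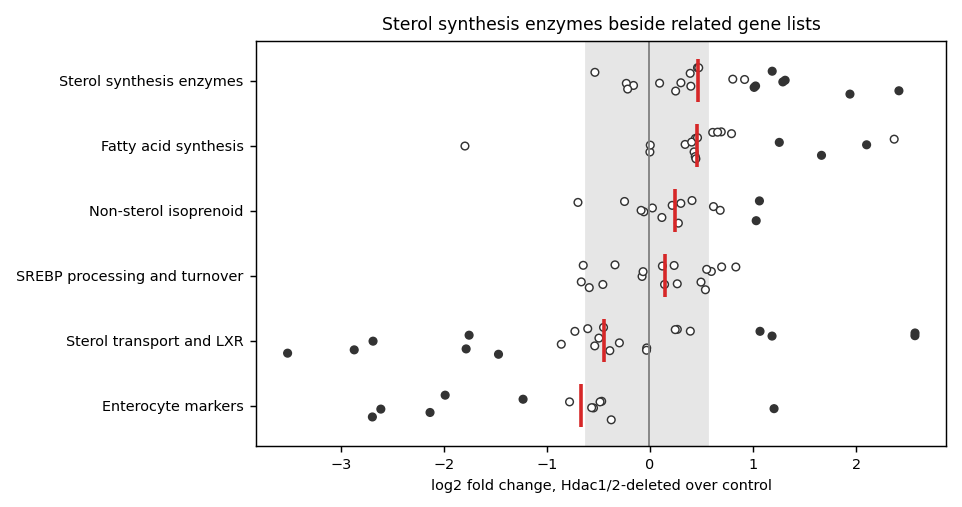
Log2 fold change, Hdac1/2-deleted over control (x axis), of each tested gene in 6 lists (y axis), with filled points for genes called at 2-fold and an adjusted p of at most 0.05, a red line at the list's median and a grey band over the middle 50% of all tested genes. The medians of the sterol enzymes (0.47) and of fatty acid synthesis (0.45) lie to the right of 0, and those of sterol transport (-0.45) and enterocyte markers (-0.67) to the left.

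Markers of other cell types, within and outside the epithelium, were read in the same way. Paneth markers (7 of 7) were called decreased, with a summed level of 3315 to 5313 CPM in control and 181 to 282 CPM in Hdac1/2-deleted mice. Over all tested genes, 12.4% were called increased and 12.7% decreased. Of 7 goblet markers 3 (42.9%) were called decreased, and of 7 enteroendocrine markers 1 (14.3%) was called increased and 2 (28.6%) decreased. Of 6 stem cell markers 2 (33.3%) were called decreased. Of 12 proliferation markers 2 (16.7%) were called increased, near the share of all tested genes. Proliferation markers summed to 328 to 546 CPM in control and 373 to 594 CPM in Hdac1/2-deleted mice, ranges that overlapped. Immune markers summed to 125, 449 and 390 CPM in C1, C3 and C3-3 and to 66.6, 150 and 122 CPM in H1, H5 and H9. Of 12 tested immune markers, 1 (8.33%) was called increased and 2 (16.7%) decreased. Among the 9 stromal markers tested, 4 (44.4%) were called decreased. The summed stromal level was 64.9 CPM in C1 and 45.8 CPM in C3. In C3-3 it was 6.30 CPM, within the 4.53 to 10.2 CPM of the Hdac1/2-deleted mice. The part of these cell types in the levels of the sterol genes was not tested.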

How the data were processed

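Jejunal IEC were enriched with EDTA from 3 control and 3 Hdac1/2-deleted mice, and their poly(A) RNA was sequenced. According to the study's methods, samples with an RNA integrity number above a set limit were sequenced as paired reads and aligned with STAR to GRCm38; the submitters' processing notes name STAR 2.4.0f1 and the build mm9. The program and annotation used for counting, and its strand setting, are not given in the sources used here. The authors deposited raw counts of reads for 19616 genes, with at least 10 counts over the 6 libraries. 12 other columns, with scaled counts and the authors' own fold changes and p-values, were not used.

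The tests used R 4.3.3 with edgeR 4.0.16 (filterByExpr, TMM, robust quasi-likelihood fit, prior count 0.125, no covariates). TMM factors ranged from 0.892 to 1.14. Benjamini-Hochberg adjustment covered all 15618 tested genes. Per-kb levels divide CPM by the union of exons in GENCODE mouse release 21. Start-site windows came from RefSeq. Tables and plots used pandas 2.3.3 and matplotlib 3.10.9 in Python 3.11.15. Nothing says that libraries share an animal or a culture, and the labels give no batch. The steps were tested on simulated data.

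The 28 genes and the related lists were chosen with earlier results of these data known. All 28 are named. From the other lists, up to 3 called genes per direction with the largest change were named, together with Acat1, Soat1, Abcg5 and Abcg8. One item covered by this rule is not reported here. Alternatives changed the scaling, the tool (DESeq2 1.42.0), the filter and the fold limit, and left out each mouse. The set with C3-3 as the only control was added after seeing the data.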

Additional observations from a re-analysis of the deposited data

How the results depend on the processing

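The calls of all 28 genes were the same with RLE size factors, with DESeq2, with no filter on low counts and with at least 10 counts in every library. Library totals alone gave 10 increased and 3 decreased genes of the 28, adding Fdft1 (log2 fold change 1.01), Cyp51 (1.13) and Srebf2 (1.10), turned Tm7sf2 to 0.044 and Hdac2 to 0.0069, and moved the median of all genes to 0.18, with 2463 increased and 1538 decreased genes in place of 1944 and 1990. A fold limit of 1.5 gave 9 increased and 4 decreased genes of the 28, beside 2805 and 2889 of the 15618 tested genes. With each mouse left out in turn, 5 to 10 of the 28 genes were called increased and 2 to 3 decreased, 7 to 11 passed the adjusted p limit higher and 4 lower. Over all genes, 1841 to 2109 were called increased and 1790 to 2012 decreased in these fits. Among the 28, the lowest count of increased genes was without C1, where Mvd and Dhcr7 missed 2-fold, and the highest without C3-3. Over these fits the log2 fold change changed sign for Tm7sf2 (-0.32 to 0.044), Insig1 (-0.73 to 0.069), Idi1 (-0.28 to 0.58), Ggps1 (-0.15 to 0.23) and Sc5d (-0.47 to 0.099), none of which was called. With C3-3 as the only control, Hmgcs1 (-0.081), Lss (-0.082) and Msmo1 (-0.10) changed sign. The log2 fold changes of Fdps (0.90), Mvd (0.55) and Dhcr7 (0.77) were then below the 2-fold limit, and the cause was not tested. This fit assumes that the lone control varies like the Hdac1/2-deleted mice. The median over all tested genes was then 0.065. No paired analysis was possible because the labels give no pairs of mice. The number shared by the names C1 and H1 is not a label of a pair. The lowest count of any of the 28 genes in a library was 119 reads, for Idi1 in H5, and 3 mice per group limit the precision.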

Other observations

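Some of the increased enzymes start within 1000 bases of a gene on the other strand, pairs that were looked up after the data had been seen. Mvk and Mmab, a gene of vitamin B12 metabolism, start 209 bases apart. Mvk had a log2 fold change of 2.41, and Mmab stood at 7.94 CPM in control and 8.14 CPM in Hdac1/2-deleted IEC (log2 fold change 0.04, standard error 0.23, adjusted p = 0.91). Dhcr7 and Nadsyn1, a gene of NAD synthesis, start 296 bases apart, and their log2 fold changes were 1.01 and -0.50 (adjusted p = 0.015 and 0.039). Nsdhl and the centrin gene Cetn2 start 146 bases apart, with log2 fold changes of 1.29 and 0.20 (adjusted p = 0.0095 and 0.43). In these 3 pairs the sterol enzyme was called increased and its neighbour was not called. The differences within the pairs were not tested.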
